A study of Mus musculus with 6 samples.

Results

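Mast cell genes were followed in whole-tumour RNA from mice with and without annexin A1 in their myeloid cells. The 10 mast cell genes were chosen by name, with earlier results of these data known. Of these, 9 had a row in the deposited table of 17352 genes. They were the granule proteases Cpa3, Mcpt4, Cma1 and Tpsb2, the receptors Kit, Fcer1a, Ms4a2 and Mrgprb1, and the histamine-forming enzyme Hdc. The tryptase gene Tpsab1 had no row and is not analysed here. RefSeq (GRCm38.p6) lists it as a transcribed pseudogene. All 9 had a mean of at least 0.5 FPKM (fragments per kilobase of gene, scaled to library size) and were among the 12257 genes tested.

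The tumours grew under the skin from implanted Panc02 cells, a mouse pancreatic cancer line, and were collected after 4 weeks. In 3 hosts Anxa1 was deleted in myeloid cells (genotype Anxa1ΔMɸ), and 3 hosts were wild type with floxed alleles (Anxa1flox/flox). They are called deficient 3, 4 and 5 and wild type 2, 3 and 5 after their labels, and values per tumour are listed throughout in that order, 3, 4 and 5 and then 2, 3 and 5. All 6 labels carry the letters HFD, which they do not define. The labels used here name neither the Cre driver nor whether mast cells lost Anxa1, and give no age for the animals. The implanted tumour cells and the other host cells still carry Anxa1, so its level in a whole tumour is only a partial check of the deletion. Anxa1 had FPKM of 249.9, 330.2 and 290.5 in the deficient tumours, against 341.8, 354.4 and 394.2 in the wild type (limma adjusted p = 0.268). The labels do not describe how the animals were housed or paired, so p-values measure only the spread between these 6 samples. The groups also differed in Y-linked RNA in all 6 tumours, as given below, and this difference cannot be told apart from genotype. Libraries held an implied 37500000 to 41100000 fragments.

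Mast cells are tissue-resident granulocytes of connective tissue and mucosa that depend on the growth factor receptor Kit. Their granules hold tryptases, chymases, carboxypeptidase A3 and histamine. Granules are released when IgE bound to its high-affinity receptor is cross-linked, or when Mrgpr receptors meet basic peptides. Mast cells are common in skin and at the margins of many tumours.

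The transcription factor Gata2, which binds GATA words, is required for mast cell development. The 250 bases before the start of 4 of the genes are shown because these genes span both kinds of molecule described next, proteases and a receptor subunit. They are printed 5′ to 3′ on the gene's strand, from RefSeq GRCm38.p6, with capitals marking each GATA word, that is GATA preceded by A or T and followed by A or G, on either strand. The build of the deposited table is not given in the sources used here.
Cpa3 (chr3:20242182-20242431, minus strand): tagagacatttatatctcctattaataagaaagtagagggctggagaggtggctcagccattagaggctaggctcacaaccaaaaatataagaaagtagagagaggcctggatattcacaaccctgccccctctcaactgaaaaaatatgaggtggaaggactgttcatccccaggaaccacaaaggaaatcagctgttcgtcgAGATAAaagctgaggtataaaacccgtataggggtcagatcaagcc
Mcpt4 (chr14:56062311-56062560, minus strand): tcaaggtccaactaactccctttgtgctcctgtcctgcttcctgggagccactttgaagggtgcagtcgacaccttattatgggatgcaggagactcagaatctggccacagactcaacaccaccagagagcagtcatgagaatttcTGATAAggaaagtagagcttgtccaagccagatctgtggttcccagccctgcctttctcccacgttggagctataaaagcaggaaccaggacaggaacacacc
Cma1 (chr14:55944676-55944925, minus strand): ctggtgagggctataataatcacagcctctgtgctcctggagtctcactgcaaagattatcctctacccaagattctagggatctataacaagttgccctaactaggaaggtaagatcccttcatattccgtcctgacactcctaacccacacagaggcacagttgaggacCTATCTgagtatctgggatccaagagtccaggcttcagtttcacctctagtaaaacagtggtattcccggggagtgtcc
Ms4a2 (chr19:11623720-11623969, minus strand): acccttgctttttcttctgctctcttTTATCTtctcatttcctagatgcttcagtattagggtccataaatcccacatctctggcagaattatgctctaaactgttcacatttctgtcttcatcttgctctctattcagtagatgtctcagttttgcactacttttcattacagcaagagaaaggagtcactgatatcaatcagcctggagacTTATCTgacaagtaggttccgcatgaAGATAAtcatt
Sequences were found for 8 of the genes, with none for Tpsb2 and Tpsab1. A GATA word lay in the window of 7 of these 8, Kit being the exception, against 26.5% of 32851 windows of the same length. The word CANNTG, the core bound by Mitf and other E-box factors, was in 5 of the 8 windows and in 66.2% of all windows. These matches describe the letters of the windows only.

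Transcripts of mast cell granule proteases were abundant in every tumour of both groups. Levels are FPKM, which are per length and can be set beside each other. Averaged over the 6 tumours, Tpsb2 stood highest at 113.6, followed by Cma1 at 43.5, Mcpt4 at 40.9, Cpa3 at 37.5, Hdc at 10.5, Fcer1a at 9.59, Kit at 4.99, Mrgprb1 at 1.30 and Ms4a2 at 1.15. Cma1, Mcpt4 and Cpa3 lay closer to each other than the spread between tumours, as did Hdc and Fcer1a, and Mrgprb1 and Ms4a2. Each gene varied from 1.91-fold (Cpa3) to 3.54-fold (Ms4a2) between its lowest and highest tumour.

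The group difference in these genes was not resolved from that variation after adjustment over all genes. All 9 genes had a lower mean of log2(FPKM + 1) in deficient tumours, and 0 of 9 passed an adjusted p under 0.05 in limma's test over all genes. Over all 12257 tested genes, 0.228% passed as lower, 0.979% passed as higher, and 45.3% had a log2 fold change below 0. The median log2 fold change was -0.23 for the 9 genes and 0.02 for all tested genes. The genes vary together between tumours, so their shared direction is not 9 separate observations. The groups overlapped in FPKM for every one of the 9, where 20.1% of all tested genes did not overlap, 8.31% of them with the deficient group lower. In whole tumours, fewer mast cells and less RNA per mast cell cannot be told apart. At an unadjusted p under 0.05 Ms4a2 alone was lower, as were 5.25% of all tested genes.

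**Figure D1:**
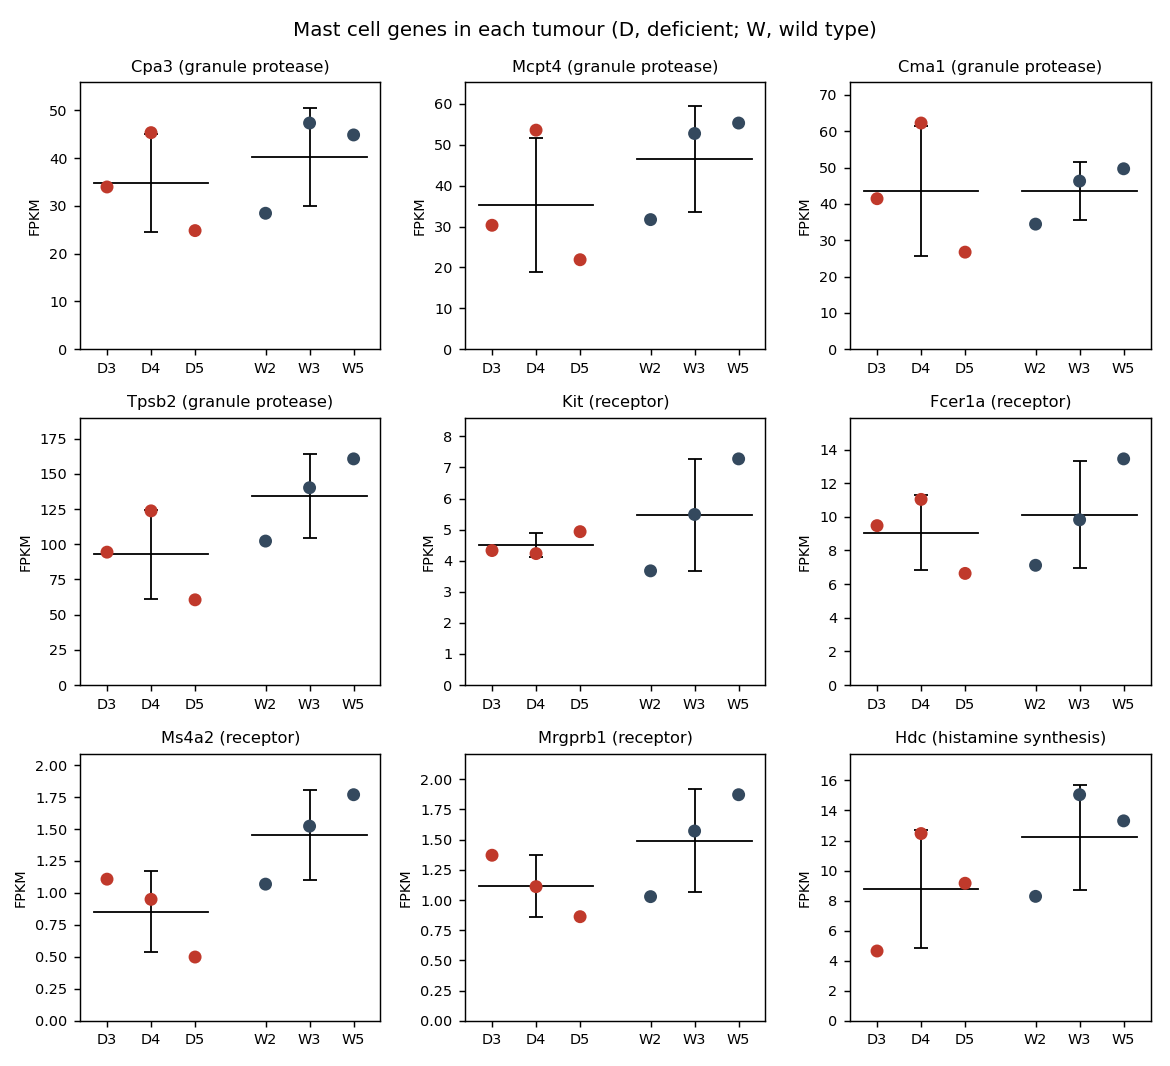
FPKM of the 9 mast cell genes in each tumour on linear axes from 0, with D3, D4 and D5 for deficient and W2, W3 and W5 for wild type; lines are group means and bars SD (n = 3). Wild type 2 lies within or below the range of the deficient tumours for every gene, and deficient 5 is the lowest tumour for 7 of the 9.

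Among the granule proteases, the tryptase Tpsb2 had the lowest fold change. Its FPKM was 94.4, 123.7 and 60.5 in the deficient tumours, against 102.2, 140.1 and 160.6 in the wild type. Wild type 2 lay below deficient 4, and deficient 5 stood lowest. Means were 92.8 ± 31.6 (SD, n = 3) in the deficient group and 134.3 ± 29.6 in the wild type, and the log2 fold change was -0.56 (SE 0.26, 95% interval -1.18 to 0.05, limma adjusted p = 0.376). These values rest on 2398 to 6576 fragments per tumour, recovered from the spacing of the values.

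The chymases Mcpt4 and Cma1 cleave after aromatic residues, although mouse Cma1 is known for an elastase-like activity instead. Mcpt4 had FPKM of 30.3, 53.6 and 21.9 in the deficient tumours, against 31.7, 52.7 and 55.3 in the wild type. Deficient 4 lay with wild type 3 and 5, and wild type 2 with deficient 3. Means were 35.2 ± 16.4 (SD, n = 3) in the deficient group and 46.6 ± 13.0 in the wild type, and the log2 fold change was -0.45 (SE 0.33, 95% interval -1.21 to 0.32, limma adjusted p = 0.566). Cma1 had FPKM of 41.4, 62.3 and 26.7 in the deficient tumours, against 34.4, 46.3 and 49.7 in the wild type. Both the highest and the lowest value belonged to deficient tumours. Its means were 43.47 ± 17.9 and 43.46 ± 8.001 FPKM (SD, n = 3), and only the log2 scale put the deficient group lower, at -0.06 (SE 0.28, 95% interval -0.72 to 0.59, limma adjusted p = 0.941).

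Carboxypeptidase A3, the gene Cpa3, trims peptides cut by the chymases. Its FPKM was 33.95, 45.3 and 24.8 in the deficient tumours, against 28.4, 47.3 and 44.8 in the wild type. The tumours fell into a high set of deficient 4 and wild type 3 and 5 and a low set of the rest. The log2 fold change was -0.21 (SE 0.25, 95% interval -0.79 to 0.37, limma adjusted p = 0.739).

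The receptors lay lower in level than the proteases. Kit, the receptor for stem cell factor, had FPKM of 4.33, 4.23 and 4.93 in the deficient tumours, against 3.67, 5.49 and 7.28 in the wild type. The 3 deficient tumours were close together and lay between wild type 2 and wild type 3. The log2 fold change was -0.20 (SE 0.20, 95% interval -0.66 to 0.26, limma adjusted p = 0.678). In deficient 5 Kit was the highest of the 3 deficient tumours, whereas the 4 proteases were lowest there.

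Fcer1a and Ms4a2 encode the alpha and beta chains of the IgE receptor. Fcer1a had FPKM of 9.48, 11.04 and 6.64 in the deficient tumours, against 7.12, 9.82 and 13.4 in the wild type, a log2 fold change of -0.13 (SE 0.24, 95% interval -0.68 to 0.42, limma adjusted p = 0.842). The groups were interleaved. Ms4a2 had FPKM of 1.11, 0.9501 and 0.499 in the deficient tumours, against 1.07, 1.52 and 1.77 in the wild type. Here the overlap came down to wild type 2, which lay just below deficient 3. The means of Ms4a2 were 0.852 ± 0.316 and 1.45 ± 0.355 FPKM (SD, n = 3), and the log2 fold change was -0.41 (SE 0.17, 95% interval -0.81 to -0.01, limma unadjusted p = 0.0446, adjusted p = 0.315). The low level understates the fold on this scale. Deficient 5 held 53 Ms4a2 fragments (exact 95% Poisson interval 39.7 to 69.3) and wild type 5 held 194 (168 to 223), and these intervals cover counting error only.

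Mrgprb1 encodes a Mas-related receptor. It had FPKM of 1.37, 1.11 and 0.863 in the deficient tumours, against 1.03, 1.57 and 1.87 in the wild type. Wild type 2 again lay among the deficient tumours. The log2 fold change was -0.23 (SE 0.16, 95% interval -0.60 to 0.15, limma adjusted p = 0.548).

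Hdc, which forms histamine from histidine, departed from most of the other genes in deficient 3 and deficient 5. Its FPKM was 4.65, 12.5 and 9.16 in the deficient tumours, against 8.28, 15.0 and 13.3 in the wild type. Deficient 3 was the lowest, and deficient 5 lay above wild type 2. The log2 fold change was -0.49 (SE 0.33, 95% interval -1.25 to 0.27, limma adjusted p = 0.527). Neutrophils can also express Hdc. Of 9 neutrophil markers 7 were tested, 3 were higher, 4 were lower and 0 passed. Ltf (0.94, limma adjusted p = 0.121) and Retnlg (0.998, limma adjusted p = 0.152) were higher in every deficient tumour. Over all tested genes 20.1% did not overlap, in either direction. The summed FPKM of the 9 markers was 168.9 to 348.7 in deficient and 160.1 to 282.2 in wild-type tumours, mostly S100a8 and S100a9. The part of neutrophils in the Hdc level was not tested.

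**Figure D2:**
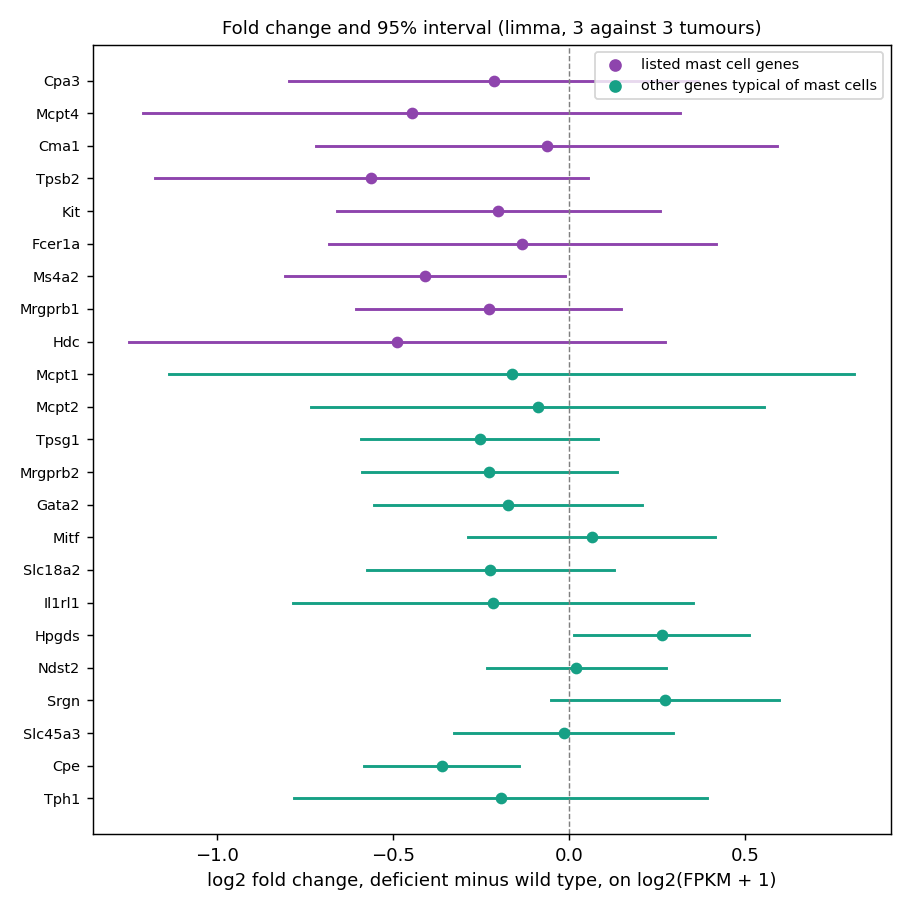
Log2 fold change on log2(FPKM + 1), deficient minus wild type, with 95% intervals from limma, for the 9 mast cell genes and 14 tested genes from a wider list; the dashed line marks no change. Among the 9 only the interval of Ms4a2, -0.81 to -0.01, stays below 0, before adjustment over all genes.

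Across tumours the 9 genes formed a graded series in which the groups mixed. Their summed FPKM was 221.0, 314.6 and 156.0 in the deficient tumours, against 218.0, 319.9 and 348.1 in the wild type. Deficient 4 stood close to wild type 3, and wild type 2 close to deficient 3. The mean of the centred log2 values gave the order wild type 5 (0.41), wild type 3 (0.28), deficient 4 (0.18), deficient 3 (-0.19), wild type 2 (-0.23) and deficient 5 (-0.46). For the 4 proteases alone deficient 4 (0.38) lay between wild type 5 (0.40) and wild type 3 (0.33). For the 4 receptors it stood at -0.04, under wild type 5 (0.42), wild type 3 (0.16) and deficient 3 (-0.02).

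The genes differed in how closely they followed the others. Over the 6 tumours, the Pearson r of each gene with the mean of the other 8 was 0.97 for Mcpt4, 0.95 for Cpa3, 0.94 for Tpsb2, 0.89 for Fcer1a, 0.81 for Ms4a2, 0.80 for Mrgprb1 and 0.79 for Cma1. It was lower for Hdc (0.58) and Kit (0.56). These values describe 6 tumours in which library and group are shared by all genes.

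Some ratios between proteases separated the groups where the single proteases did not. Cma1 relative to Tpsb2 was 0.439, 0.503 and 0.442 in the deficient tumours, against 0.337, 0.330 and 0.309 in the wild type, with no overlap. The mean ratios were 0.461 ± 0.0364 and 0.325 ± 0.0144 (SD, n = 3). On differences of log2(FPKM + 1) the exact two-sided permutation p was 0.1, the smallest that 3 against 3 allows. Any pair that fully separates the groups has this p, so it adds nothing to the separation. Mcpt4 relative to Cma1 was 0.731, 0.860 and 0.819 in the deficient tumours, against 0.920, 1.14 and 1.11 in the wild type. Cpa3 relative to Tpsb2 was 0.360, 0.366 and 0.410 in the deficient tumours, against 0.278, 0.338 and 0.279 in the wild type. The other protease pairs overlapped, namely Cpa3 with Mcpt4, Cpa3 with Cma1 and Mcpt4 with Tpsb2. Tpsb2 relative to Fcer1a, Ms4a2 relative to Mrgprb1, Cma1 relative to Ms4a2 and Fcer1a relative to Ms4a2 also separated the groups. The separating pairs were 7 of the 36 among the 9 genes (19.4%). Among 74878203 pairs of tested genes above 0 in every tumour 21.7% separated the groups by the same rule. On log2(FPKM + 1) it was 5 of 36 (13.9%), without the last 2 pairs, against 21.9% of all 75110896 pairs. On both scales the share among the mast cell genes was not above that of genes in general.

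**Figure D3:**
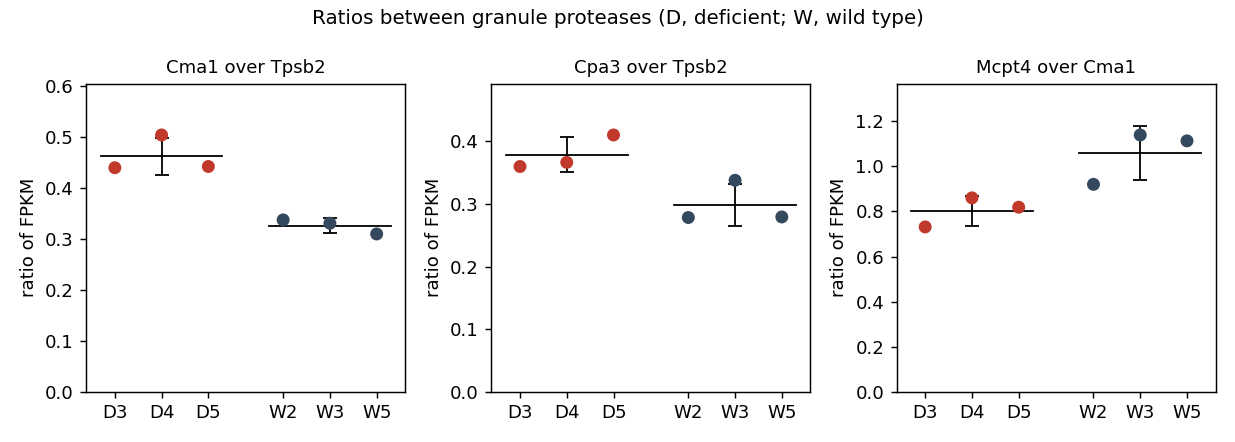
Ratio of FPKM between granule proteases in each tumour on linear axes from 0, with D for deficient and W for wild type; lines are group means and bars SD (n = 3). The Cma1 over Tpsb2 ratio is 0.439 or more in the deficient tumours and 0.337 or less in the wild-type tumours. Only protease pairs that separated the groups are shown.

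A wider list of 20 genes typical of mast cells had 19 in the table and 14 tested, of which 10 were lower, 4 were higher and 0 passed, with a median log2 fold change of -0.17. Mcpt2, a protease known from mucosal mast cells, averaged 98.8 FPKM over the 6 tumours, beside 113.6 for Tpsb2. It lay above Tpsb2 only in deficient 4 and deficient 5. Its FPKM was 85.3, 139.4 and 66.7 in the deficient tumours, against 76.5, 99.6 and 125.6 in the wild type, a log2 fold change of -0.09 (SE 0.28, limma adjusted p = 0.914). Mcpt1, the other mucosal protease, had 5.69, 16.7 and 3.98 in deficient and 7.17, 10.3 and 7.97 in wild-type tumours in the same order (limma adjusted p = 0.893). Deficient 4 was the highest and deficient 5 the lowest tumour for both, as for Cma1.

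Sequence overlap between these relatives was small. Of the distinct 75-base words in the GENCODE M21 transcripts, Tpsb2 shared 0 with Tpsab1 or any other gene, as did Cpa3, Mcpt1 and Mcpt2. Mcpt4 shared 2.51% of its words with Cma2, Cma1 shared 1.67% with Gm48934, and Ms4a2 shared 1.22% with Ms4a4b. How reads matching several genes were counted is not given in the sources used here.

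The transcription factor Gata2 had FPKM of 2.28, 2.48 and 1.66 in the deficient tumours, against 1.89, 2.74 and 3.03 in the wild type. Its log2 fold change was -0.17 (SE 0.16, limma adjusted p = 0.666). Gata2 ranked the 6 tumours in the same order as the 9-gene mean. The fibroblast markers Col1a1 and Col1a2 gave that order too, with r of 0.97 and 0.96 against 0.97 for Gata2. Mitf, another factor of the lineage that many cells express, was at 0.06 (adjusted p = 0.884). Of 8 transcription factor genes, Gata2 and Mitf among them, 7 were tested, 4 were lower, 3 were higher and 0 passed. The smallest p belonged to Spi1 at 0.41 (adjusted p = 0.102) and Runx1 at -0.27 (adjusted p = 0.267). Neither overlapped between the groups, as for 20.1% of all tested genes. Slc18a2, which loads histamine into granules, was at -0.22 (adjusted p = 0.529), the IL-33 receptor Il1rl1 at -0.22 (adjusted p = 0.731) and Mrgprb2, the receptor for basic secretagogues in mice, at -0.23 (adjusted p = 0.536). Cpe (-0.36, adjusted p = 0.141) and Hpgds (0.26, adjusted p = 0.308), which other cells also express, had the smallest p of the wider mast cell list.

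Mrgprx2, named in the table as a further Mas-related receptor, lay below the 0.5 FPKM filter. Its FPKM was 0.217, 0.224 and 0.169 in the deficient tumours, against 0.389, 0.524 and 0.535 in the wild type, from 29 to 42 fragments against 70 to 95. All deficient tumours lay below all wild-type tumours, as for 8.31% of tested genes, a share that leaves out Mrgprx2 and other genes below the filter. With no filter the log2 fold change of Mrgprx2 was -0.30 (SE 0.05) with a limma adjusted p of 0.120, which did not pass.

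Among cytokines that feed or trigger mast cells, 7 of 9 were in the table, 3 were tested and 0 passed. The alarmin Il33 had FPKM of 65.3, 83.1 and 41.7 in the deficient tumours, against 117.3, 101.4 and 99.2 in the wild type, with no overlap. Its log2 fold change was -0.78 (SE 0.22, limma adjusted p = 0.168). Over all tested genes 8.31% likewise had every deficient tumour below every wild-type tumour. Kitl, the ligand of Kit, was at -0.20 (adjusted p = 0.695) and Tslp at -0.19 (adjusted p = 0.792). Il4 and Il13 lay at 0.141 FPKM or less in every tumour.

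Of the genes of IgE receptor signalling 14 were tested. Their log2 fold change was above 0 for 12 and 0 passed, with a median log2 fold change of 0.31. Fcer1g, the gamma chain shared with other Fc receptors, was at 0.54 (limma adjusted p = 0.0676). T cells, macrophages and NK cells express most of this list, and its levels do not separate mast cells from them. The 7 eicosanoid enzyme genes had 6 higher and 0 that passed (median 0.26), with Alox5ap at 0.44 (adjusted p = 0.180) and Hpgds as above.

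Markers of other cells known for single mast cell genes were also measured. Melanocytes and the interstitial cells of Cajal in the gut also express Kit. Of 6 melanocyte markers 3 had a row, and their summed FPKM was 0.0487 to 0.176 in deficient and 0.102 to 0.139 in wild-type tumours. Of 3 interstitial cell markers 2 were tested and 0 passed. Their summed FPKM was 9.53, 18.9 and 6.84 in the deficient tumours, against 7.77, 18.1 and 12.1 in the wild type, with deficient 4 and wild type 3 and 5 high and deficient 5 lowest, as for Cpa3. Thbs4, which other cells also express, had an r of 0.83 with the 9-gene mean over the 6 tumours, and Ano1 an r of -0.12. Thbs4 had the pattern of the sum, at 1.04, 10.2 and 0.589 FPKM in deficient and 4.56, 15.1 and 6.55 in wild-type tumours. Ano1 was instead higher in every deficient tumour, at 8.08, 8.39 and 5.89 FPKM against 2.91, 2.68 and 5.15. Its log2 fold change was 0.91 (limma adjusted p = 0.109). Over all tested genes 20.1% did not overlap, in either direction. The part of such cells in the Kit level was not tested. The basophil proteases Mcpt8 and Prss34 reached at most 0.490 and 0.325 FPKM in any tumour. Of 6 basophil markers 3 were tested and 0 passed. The sums were 12.6 to 15.1 in deficient and 10.8 to 12.0 in wild-type tumours, mostly Il3ra and Il18rap, which other leukocytes express.

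The tumour profile of the 9 genes was set beside that of other tested genes, on log2(FPKM + 1). Unnamed gene models and T cell receptor or immunoglobulin segments were left out. Among 11183 genes with a mean log2 level of at least 1, the 10 with the highest Pearson r over the 6 tumours with the 9-gene mean were Col23a1, Col16a1, Fbln2, Mfap4, Zfp354c, Cdh11, Cyp26a1, Camk4, Tjap1 and Ddah1, at r of 0.984 to 0.995. They were picked as the best of many, so values this high carry no weight of their own. Col23a1 and Col16a1 encode collagens, and Fbln2 and Mfap4 encode proteins of elastic and microfibrillar matrix. Mfap4 had FPKM of 19.3, 54.2 and 13.4 in the deficient tumours, against 19.0, 59.1 and 84.4 in the wild type, with wild type 2 beside deficient 3 as in the mast cell genes.

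**Figure D4:**
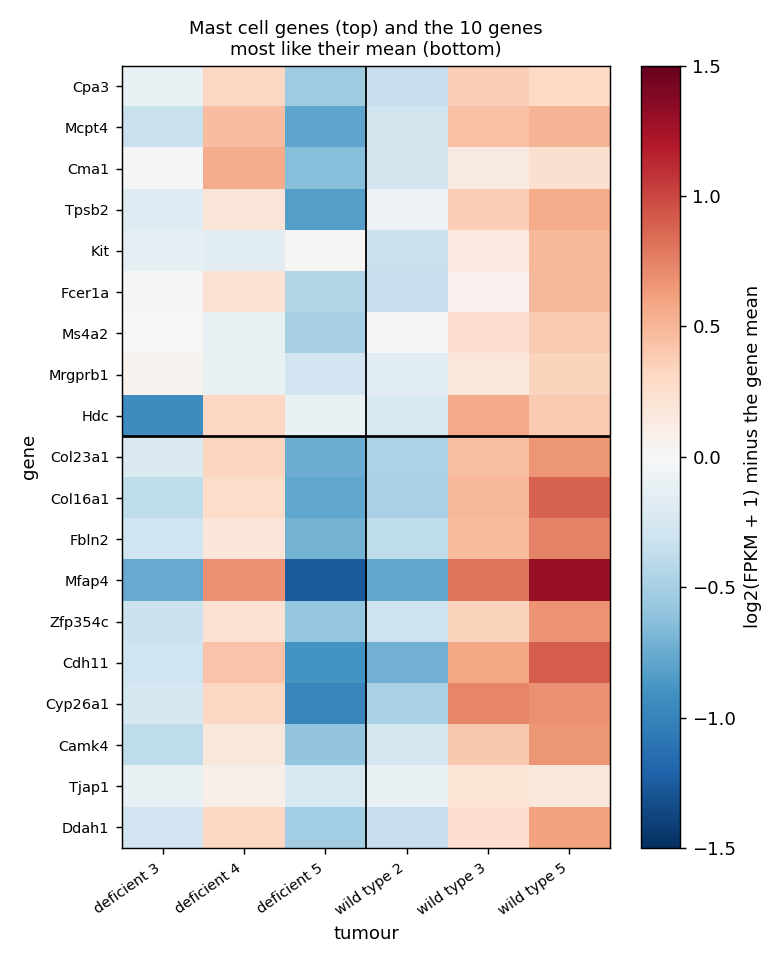
Log2(FPKM + 1) of each gene minus its mean over the 6 tumours, for the 9 mast cell genes above the line and the 10 genes most like their mean below it. Wild type 3, wild type 5 and deficient 4 are mostly above the gene means, and deficient 5 and wild type 2 mostly below.

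Of 10 fibroblast markers, 7 were lower in deficient tumours and 0 passed (median log2 fold change -0.55). Their summed FPKM was 2336, 3035 and 1856 in the deficient tumours, against 2021, 4248 and 5785 in the wild type. Lum, a matrix proteoglycan on that list, had FPKM of 313.0, 326.9 and 225.5 in the deficient tumours, against 416.2, 706.7 and 788.2 in the wild type (limma adjusted p = 0.0999). It had wild type 2 above deficient 4, as did Dcn, while Postn was highest in deficient 4 and Col3a1 lowest in wild type 2. Col1a1 and Col1a2 ranked the 6 tumours in the same order as the 9-gene mean, at r of 0.97 and 0.96. Dcn, Col3a1, Lum and Postn had r of 0.89, 0.85, 0.84 and 0.66. Some matrix genes thus shared the order of the mast cell genes and others did not. Of 10 adipocyte markers 9 had a log2 fold change above 0, and 0 passed. Their sums were 281.9, 149.6 and 548.8 in deficient and 99.1, 60.2 and 168.5 in wild-type tumours, highest in deficient 5, where 7 of the 9 mast cell genes were lowest. Keratins of the tumour line were high in every tumour, Krt8 at 197.7 to 266.4 and Krt18 at 202.1 to 251 FPKM, while Krt19 was at 40.2, 37.5 and 36.9 FPKM in the deficient tumours and 44.9, 12.0 and 10.7 in the wild type (limma adjusted p = 0.351), low in the wild-type tumours where the mast cell genes were high. Epcam was at 1.19 to 5.47 FPKM in deficient and 0.0983 to 0.324 in wild-type tumours, with no overlap (limma adjusted p = 0.0808). Over all tested genes 20.1% did not overlap, in either direction. Of 7 tested epithelial tumour markers 6 were higher and 0 passed, with sums of 453.7 to 602.2 in deficient and 460.1 to 551.6 in wild-type tumours. The Y-linked Ddx3y separated the groups, at 0.126 FPKM or less in deficient and 3.13 or more in wild-type tumours (limma adjusted p = 0.00903). The Y-linked Eif2s3y also did, at 0.0667 or less against 0.624 or more (limma adjusted p = 0.0432). Below the 0.5 FPKM filter, Kdm5d (0.0415 or less against 0.709 or more) and Uty (0.0218 or less against 0.678 or more) separated them too. The groups thus differed in Y-linked RNA in all 6 tumours. Host sex was not tested, and any difference in it goes with genotype and cannot be told apart from it. The part of these differences in the mast cell values was not tested.

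The mast cell values depended on single tumours. Without wild type 2 the median log2 fold change of the 9 genes was -0.44 and the lowest limma adjusted p was 0.192. Without deficient 4 they were -0.42 and 0.155. Without wild type 5 the median was -0.12 and 7 of the 9 were lower, and without deficient 5 it was -0.16 with 7 of 9 lower. Fcer1a and Cma1 were the genes that turned higher in both cases. In each of these fits 0 of the 9 passed.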

How the data were processed

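Whole-tumour RNA was extracted with TRIzol, made into libraries and sequenced as 150 bp paired-end reads, per the labels' protocols. Tools listed in the submitters' processing notes are HISAT2, HTSeq and R 3.2.0, with no role given. The authors deposited 1 table, with values taken here as FPKM from the values themselves, since no header names a unit. After scaling by relative depth, 96.2% of genes had values that were integer multiples of 1 step (tolerance 0.001). The smallest such whole numbers are given as fragments, and GENCODE M21 exon lengths of 498 genes set the implied totals.

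Genes with a mean of at least 0.5 FPKM were tested with limma 3.58.1 (R 4.3.3) on log2(FPKM + 1), with a variance trend, a group term and two-sided Benjamini-Hochberg adjusted p under 0.05. The fit was checked on simulated data. Ratios, fragments and promoters were computed in Python 3.11.15.

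The members and lists were chosen with earlier results of these data known. All 10 mast cell genes, any gene of the wider mast cell, cytokine and basophil lists, the 2 smallest p of other lists, Anxa1, Y-linked genes and the 10 genes most like the 9-gene mean could be named. Several of these are given only within their list's counts. The eosinophil, endothelial, muscle and keratinocyte lists were also measured but are not described here. Markers named for other lists beyond that rule were chosen after their values were seen, as were the ratios. Alternatives were pseudocounts, scalings, filters, a replicate block and leaving out each tumour.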

Additional observations from a re-analysis of the deposited data

How the results depend on the processing

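No member was called under another pseudocount (0.1 or 0.5), median-ratio, upper quartile or quantile scaling, no filter, a requirement of 1 FPKM in 3 libraries, or without any 1 tumour, and all 9 stayed lower on the log2 scale except without deficient 5 or wild type 5. There Cma1 was at 0.24 and 0.04 and Fcer1a at 0.05 and 0.075, in this order. Leaving out 1 tumour at a time gave log2 fold changes from -0.36 to 0.24 for Cma1 and from -0.34 to 0.075 for Fcer1a. The ranges were -0.44 to -0.00074 for Cpa3 (highest without deficient 5), -0.42 to -0.0048 for Kit (without wild type 5), -0.76 to -0.14 for Hdc (without deficient 3), -0.79 to -0.16 for Mcpt4 and -0.80 to -0.29 for Tpsb2 (both without deficient 5), -0.37 to -0.12 for Mrgprb1 (without wild type 5) and -0.53 to -0.26 for Ms4a2 (without deficient 5). The same fits gave 7 to 275 genes called higher and 3 to 69 lower, against 120 and 28 in all 6 tumours. Quantile normalization gave 74 higher, and no filter gave 10 higher and 8 lower. With the label number as a replicate block, 633 genes were called higher and 354 lower and 4 members lower, namely Mcpt4 at -1.04 (adjusted p = 0.00519), Tpsb2 at -0.98 (0.0182), Cpa3 at -0.65 (0.0242) and Hdc at -1.0005 (0.0318). Groups share only numbers 3 and 5, so deficient 4 and wild type 2 do not enter this comparison and 2 pairs carry it. The labels do not say that a number marks a pair. Counting error was 1.23% to 13.7% of a member's value in a tumour, so depth limits Ms4a2 most.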
